A study of Mus musculus with 16 samples.

Results

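The miRNAs described here are 10 mature strands from 7 neighbouring hairpins of an imprinted mouse cluster: mmu-miR-337-5p, mmu-miR-337-3p, mmu-miR-665, mmu-miR-431, mmu-miR-433, mmu-miR-127, mmu-miR-434-5p, mmu-miR-434-3p, mmu-miR-136 and mmu-miR-136*. They were chosen by name, from the array's own miRNA names, with earlier results of these data known. They are 10 of the 611 mouse miRNAs on the array, and all 10 were among the 321 miRNAs that were tested. The study followed how a neointima forms, a growth of cells on the inside of a damaged vessel. Carotid arteries of female ApoE-/- mice on a C57BL/6 background were used, and the labels give the injured mice a western-type diet without saying whether the uninjured arteries came from separate animals. Without apolipoprotein E, a carrier of blood lipids, mice readily form atherosclerotic plaques. A wire was used to injure the vessel, which was taken 1, 7, 14 or 28 days later from 3, 3, 3 and 4 animals, and 3 uninjured carotid arteries were the control. Mice of the day 1 group were 8 weeks old by the labels, and those of the other groups 6 to 8 weeks. The 16 RNA samples were each given the dye Cy3 and measured on an Agilent miRNA array of their own.

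MicroRNAs are short RNAs cut from a hairpin precursor. Either strand of the hairpin's stem, the 5p or the 3p strand, can be loaded into an Argonaute protein, where its seed pairs with messenger RNAs and represses them. The cluster belongs to the imprinted Dlk1-Dio3 domain, in which the non-coding RNAs are made from the chromosome inherited from the mother and the protein-coding genes, among them Rtl1, from that of the father. The hairpins lie in a transcript that runs antisense to Rtl1, and miR-127, miR-136, miR-431, miR-433 and miR-434 are known to cut the Rtl1 messenger RNA, to which they are fully complementary. The domain is best known for its activity in the embryo, the placenta and the brain.

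The mature sequences are shown because the strand from which a miRNA comes divided the results below. All 10 were matched in RefSeq (build GRCm38.p6), and the seed, bases 2 to 8, is in capitals. The plain names of the array were placed on a strand through their miRBase records, which makes miR-431 and miR-136 5p strands and miR-665, miR-433, miR-127 and miR-136* 3p strands, so that 4 members are 5p and 6 are 3p.
miR-337-5p: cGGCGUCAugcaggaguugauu
miR-431 (5p): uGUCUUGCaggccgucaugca
miR-434-5p: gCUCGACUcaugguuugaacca
miR-136 (5p): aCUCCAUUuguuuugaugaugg
miR-337-3p: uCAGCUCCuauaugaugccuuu
miR-665 (3p): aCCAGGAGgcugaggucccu
miR-433 (3p): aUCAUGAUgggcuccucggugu
miR-127 (3p): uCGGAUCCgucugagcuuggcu
miR-434-3p: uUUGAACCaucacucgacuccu
miR-136* (3p): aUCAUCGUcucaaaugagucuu
The 10 seeds are all different, and 0 other mature mouse miRNAs of the RefSeq table share any of them. The longest stretch that any pair of members has in common is 9 bases, and this holds for miR-337-5p with miR-431 and for the strands of miR-434. The shared stretch is in capitals here, since both pairs are compared below.
miR-337-5p: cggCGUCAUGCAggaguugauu
miR-431: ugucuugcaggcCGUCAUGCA
miR-434-5p: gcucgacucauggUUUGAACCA
miR-434-3p: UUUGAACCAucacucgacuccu
Whether a probe for a member of such a pair also binds the other was not tested.

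The 7 hairpins lie on the plus strand of chromosome 12 within 9600 bases, chr12:109585789-109595388, in the order Mir337, Mir665, Mir431, Mir433, Mir127, Mir434 and Mir136. All are inside the interval that RefSeq gives for Rtl1, chr12:109564900-109604418. For the 3 hairpins with both strands among the members, the precursors are shown with the mature strands in capitals, the 5p strand first.
Mir337, chr12:109585789-109585885: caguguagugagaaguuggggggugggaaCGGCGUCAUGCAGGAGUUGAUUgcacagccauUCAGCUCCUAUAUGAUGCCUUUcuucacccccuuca
Mir434, chr12:109594506-109594599: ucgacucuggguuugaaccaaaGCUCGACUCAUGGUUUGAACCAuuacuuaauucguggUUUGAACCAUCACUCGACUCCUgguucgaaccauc
Mir136, chr12:109595327-109595388: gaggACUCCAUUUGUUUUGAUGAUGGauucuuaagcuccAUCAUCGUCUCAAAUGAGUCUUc

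Values are log2 of the brightest probe's signal divided by the 75th percentile of the array, so that 0 is that percentile and the lowest value is the floor of -5.79. Probes bind with different strength, so levels are compared between arrays for a single miRNA and never between miRNAs. In intensity units the 75th percentile was 401 to 624.1 (uninjured), 483.8 to 761.3 (day 1), 816.2 to 1214 (day 7), 518.5 to 1432 (day 14) and 566.5 to 1097.5 (day 28). All day 7 arrays exceeded those of day 1 and of the uninjured group. Each slide held 8 arrays: day 1, day 7 and 2 arrays of day 28 on slide 1, and the uninjured group, day 14 and the other 2 arrays of day 28 on slide 2. Day 7 against day 1 and day 14 against uninjured were therefore measured within a slide, while day 1 and day 7 differ from the uninjured group in slide as well. In whole-artery RNA, more cells of a type and more miRNA per cell cannot be told apart. Of the marker miRNAs of the artery's own cells, both of smooth muscle (miR-143 and miR-145) and at least 1 of the 2 of endothelium (miR-126) were well above background on all 16 arrays.

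Between day 1 and day 7 after injury the 5p members of the cluster rose. With the main settings the 3p members other than miR-665 passed the test in none of the 7 comparisons made. Under some other settings miR-127, miR-434-3p, miR-337-3p, miR-136* and miR-433 did pass, as given below. At day 7 all 4 of the 5p members were higher than at day 1, by 1.73 to 3.39-fold, against 1 of the 6 3p members, miR-665, which could enter the test only through day 7. The 5p members had a median log2 difference of 1.05 and the 3p members one of -0.18, and the median over all 321 tested miRNAs was -0.19. Leaving out miR-665, 4 of the other 9 members were called by limma at an adjusted p under 0.05, against 43.3% of all tested miRNAs called in this comparison and 18.7% called higher. At day 14, 3 of the 4 5p members and 0 of the 6 3p members were higher than in the uninjured artery, where 39.3% of all tested miRNAs were called and 20.2% called higher. The 5p median there was 0.71 and the 3p median -0.11, against 0 over all tested miRNAs. The split by strand was noticed in these values, and the comparisons share arrays: those with the uninjured group use the same 3 arteries each time.

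**Figure D1:**
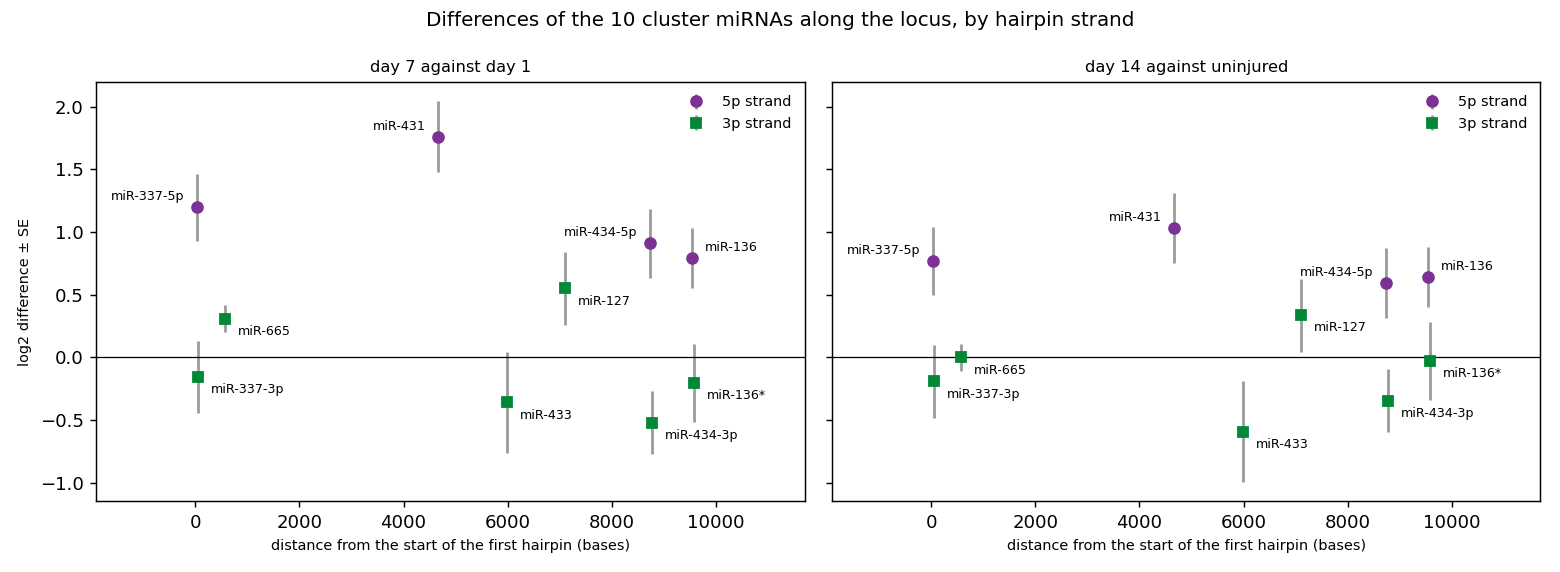
Log2 difference ± SE (limma) of the 10 cluster miRNAs plotted against the distance in bases of each mature miRNA from the start of the first hairpin, for day 7 against day 1 (left; n = 3 and 3) and day 14 against uninjured (right; n = 3 and 3). The 5p strands (circles) lie at 0.79 to 1.76 on the left and 0.59 to 1.03 on the right along the whole cluster, and the 3p strands (squares) at -0.52 to 0.55 and -0.59 to 0.34.

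mmu-miR-431, known to target Pax7 in mouse muscle satellite cells, had the largest difference among the members. Its signal was -3.48, -3.28 and -2.42 in the uninjured arteries and -3.18, -3.46 and -4.33 at day 1. It was -1.89, -1.97 and -1.83 at day 7, -2.06, -1.94 and -2.09 at day 14, and -3.51, -3.36, -3.21 and -3.47 at day 28. Every array of day 7 and day 14 was above every array of the other 3 groups, the nearest being uninjured replicate 3. From day 1 to day 7 miR-431 rose 3.39-fold (log2 1.76 ± 0.28 SE, limma adjusted p = 0.000279), a call that held with any array left out. At day 14 it was 2.04-fold higher than uninjured (log2 1.03 ± 0.28 SE, limma adjusted p = 0.0114). Without uninjured replicate 1 this difference was 0.82, with an adjusted p of 0.0527. By day 28 it was 2.57-fold lower than at day 14 (log2 -1.36 ± 0.26 SE, limma adjusted p = 0.00467). Slide as a block left a difference of -1.31 (adjusted p = 0.030), but on slide 2 alone this difference did not pass (adjusted p = 0.0728).

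mmu-miR-337-5p was also highest at day 7 and day 14. It was measured at -2.01, -1.87 and -0.80 in the uninjured arteries, at -1.74, -1.85 and -2.44 at day 1 and at -0.79, -0.90 and -0.75 at day 7. At day 14 the values were -0.93, -0.70 and -0.75, and at day 28 they were -1.97, -1.89, -1.57 and -1.84. Day 7 and day 14 lay wholly above day 1 and day 28, and uninjured replicate 3 lay among the arrays of day 7 and day 14. Between day 1 and day 7 the difference was 2.29-fold (log2 1.20 ± 0.27 SE, limma adjusted p = 0.00286), which held with any array left out. Against uninjured it was 1.70-fold higher at day 14 (log2 0.77 ± 0.27 SE, limma adjusted p = 0.0375). This call ended when any of the 3 day 14 arrays or uninjured replicates 1 or 2 was left out (log2 0.54 to 0.84, limma adjusted p 0.0651 to 0.171), and in a fit of slide 2 alone (adjusted p = 0.110). By day 28 miR-337-5p was 2.03-fold lower than at day 14 (log2 -1.02 ± 0.25 SE, limma adjusted p = 0.0159). With slide as a block that difference was -0.91 (adjusted p = 0.0959), and without day 14 replicate 2 it was -0.98 (adjusted p = 0.0582).

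mmu-miR-434-5p had its highest values at day 7. The uninjured arrays gave -4.02, -3.81 and -3.21, day 1 gave -2.96, -3.24 and -3.92, and day 7 gave -2.75, -2.36 and -2.28. Day 14 followed with -3.23, -3.16 and -2.88, and day 28 with -3.42, -3.65, -3.83 and -4.20. All 3 day 7 arrays were above all other arrays, whereas day 14 overlapped with day 1 and with the highest uninjured array. The rise from day 1 to day 7 was 1.88-fold (log2 0.91 ± 0.28 SE, limma adjusted p = 0.0176). It did not pass without day 1 replicate 3 (log2 0.63, adjusted p = 0.0844), day 7 replicate 2 (0.86, adjusted p = 0.0574) or day 7 replicate 3 (0.82, adjusted p = 0.0600). At day 14 the difference from uninjured was 0.59 ± 0.28 SE on the log2 scale (limma adjusted p = 0.109), and without uninjured replicate 3 it was 0.83 (adjusted p = 0.0405).

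mmu-miR-136 is the 5p strand of the last hairpin. Its values were -4.36, -4.57 and -4.18 in the uninjured arteries, -3.85, -4.06 and -4.41 at day 1 and -3.64, -3.12 and -3.17 at day 7. They were -3.94, -3.86 and -3.38 at day 14 and -3.78, -3.80, -4.34 and -4.48 at day 28. Day 7 was wholly above day 1, and both day 7 and day 14 were wholly above the uninjured group. The rise from day 1 to day 7 was 1.73-fold (log2 0.79 ± 0.24 SE, limma adjusted p = 0.0167). It did not pass without day 1 replicate 3 (log2 0.64, adjusted p = 0.0715), day 7 replicate 2 (0.70, adjusted p = 0.0618) or day 7 replicate 3 (0.72, adjusted p = 0.0561). The difference from uninjured at day 14 was 1.56-fold (log2 0.64 ± 0.24 SE, limma adjusted p = 0.0468). It lies at the edge of the threshold: 10 of the single arrays, among them every array of both groups, each ended the call by their absence (limma adjusted p 0.0514 to 0.171), and it turned to -0.05 with a normexp background. With that background the rise from day 1 to day 7 was 0.31 (adjusted p = 0.177), so that no call of miR-136 held.

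**Figure D2:**
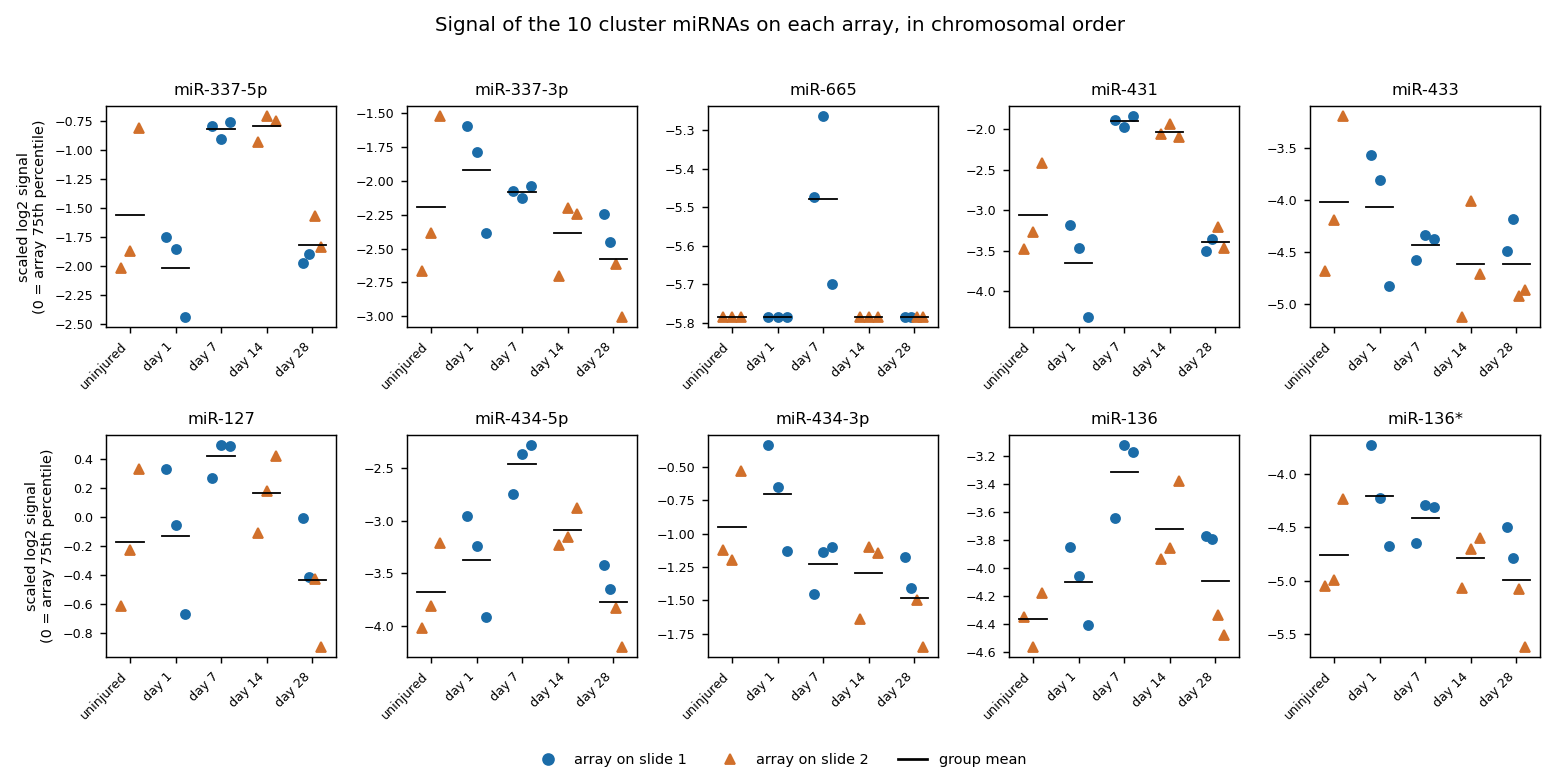
Scaled log2 signal of each of the 10 cluster miRNAs (vertical axes, 0 being the 75th percentile of the array) on the 16 arrays, by group, in chromosomal order; circles are arrays of slide 1, triangles arrays of slide 2 and bars group means. The day 7 and day 14 arrays of miR-431 sit between -2.09 and -1.83, above all other arrays, while all groups of miR-433 overlap.

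Of the 3p members, mmu-miR-434-3p is the partner strand of miR-434-5p. It was measured at -1.12, -1.19 and -0.53 in the uninjured group, -0.34, -0.65 and -1.13 at day 1 and -1.45, -1.14 and -1.10 at day 7. The signal was -1.64, -1.10 and -1.15 at day 14 and -1.17, -1.41, -1.50 and -1.85 at day 28. Its group mean was -0.71 ± 0.40 (SD) at day 1 and -1.48 ± 0.28 (SD) at day 28, and these were the only groups that did not overlap. The difference between day 7 and day 1 was -0.52 ± 0.25 SE (limma adjusted p = 0.102), and without day 1 replicate 3, the lowest array of that group, it was -0.73 (adjusted p = 0.0391). It also passed with the mean over probes (-0.61, adjusted p = 0.0315) and with array weights (-0.50, adjusted p = 0.0179). Against uninjured, miR-434-3p passed at day 1 with array weights (0.47, limma adjusted p = 0.0211) and at day 28 with quantile normalization (-0.78, adjusted p = 0.0493).

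mmu-miR-337-3p passed no test with the main settings. Its ranges were -2.67 to -1.52 (uninjured), -2.38 to -1.60 (day 1), -2.13 to -2.04 (day 7), -2.70 to -2.20 (day 14) and -3.01 to -2.24 (day 28). Day 7 lay above day 14 and day 28, and the other groups overlapped. Its largest difference from uninjured was -0.39 ± 0.27 SE at day 28 (limma adjusted p = 0.342). With array weights the difference of miR-337-3p from uninjured at day 1 passed (0.61, limma adjusted p = 0.0104). The ranges of mmu-miR-433 were -4.68 to -3.19 (uninjured), -4.83 to -3.56 (day 1), -4.57 to -4.33 (day 7), -5.13 to -4.01 (day 14) and -4.92 to -4.18 (day 28). Its differences from uninjured lay between -0.59 and -0.05, each with an SE of 0.38 or 0.41. Its groups overlapped. For mmu-miR-136* the ranges were -5.05 to -4.24 (uninjured), -4.68 to -3.73 (day 1), -4.65 to -4.30 (day 7), -5.06 to -4.60 (day 14) and -5.62 to -4.50 (day 28). It was well above background on 14 of the 16 arrays, and its largest difference from uninjured was 0.55 ± 0.31 SE at day 1 (limma adjusted p = 0.194). With array weights miR-136* passed against uninjured at day 1 (0.77, limma adjusted p = 0.00333) and day 7 (0.63, adjusted p = 0.00659).

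mmu-miR-127, known to repress Rtl1 in the mouse placenta, had its highest group mean at day 7. The arrays read -0.61, -0.23 and 0.33 when uninjured, 0.33, -0.05 and -0.67 at day 1 and 0.27, 0.50 and 0.49 at day 7. They read -0.11, 0.18 and 0.42 at day 14 and 0.00, -0.41, -0.43 and -0.90 at day 28. The day 7 group overlapped with the highest arrays of the uninjured and day 1 groups. At day 7 miR-127 differed from uninjured by 0.59 ± 0.29 SE (limma adjusted p = 0.116) and from day 1 by 0.55 ± 0.29 SE (adjusted p = 0.139). Without uninjured replicate 3 the first of these was 0.84 (adjusted p = 0.0318). It also passed without scaling (1.56, adjusted p = 0.0282) and with array weights (0.82, adjusted p = 0.00114). The difference from day 1 passed with the 75th percentile over all probes (1.04, limma adjusted p = 0.0223) and with median scaling (1.04, adjusted p = 0.0206). With array weights it passed too (0.54, adjusted p = 0.0299). So did miR-127 with array weights at day 14 against uninjured (0.54, limma adjusted p = 0.0293) and from day 14 to day 28 (-0.67, adjusted p = 0.0464).

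mmu-miR-665 was near the limit of detection. It lay at the floor on all arrays but those of day 7, which gave -5.47, -5.26 and -5.70, and was well above background on these 3 arrays and on day 14 replicate 3. It could enter the test only through day 7. The fitted differences were 0.31 ± 0.11 SE against uninjured (limma adjusted p = 0.0293) and against day 1 (adjusted p = 0.034), a size set by the floor. Taken against the lowest signal that was well above background on the uninjured arrays, the bound was -0.17, so that no fold can be given. Against day 1 the bound was 0.04 on the log2 scale. With the floor set at 2 times its height the day 7 difference was 0.

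Day 7 against uninjured takes the uninjured artery as the reference in place of day 1, and it was measured across slides. Called higher were miR-665 and 4 of the other 9 members, against 49.8% of all tested miRNAs called and 27.4% called higher: miR-434-5p by 2.33-fold (log2 1.22 ± 0.28 SE, limma adjusted p = 0.00237), miR-431 by 2.24-fold (1.16 ± 0.28 SE, adjusted p = 0.00368), miR-136 by 2.08-fold (1.06 ± 0.24 SE, adjusted p = 0.00228) and miR-337-5p by 1.68-fold (0.75 ± 0.27 SE, adjusted p = 0.034). All 4 5p members were thus higher. With slide as a block, which rests on the 4 arrays of day 28, 0 of the 10 were called, against 28.3% of all tested miRNAs, and 2 of the 10 had an unadjusted p under 0.05. The block differences were 1.26 ± 0.46 SE for miR-431 (limma adjusted p = 0.0607), 0.98 ± 0.43 SE for miR-337-5p (adjusted p = 0.121), 0.74 ± 0.42 SE for miR-434-5p (adjusted p = 0.227) and 0.43 ± 0.31 SE for miR-136 (adjusted p = 0.353). The call of miR-337-5p also ended when any array of day 7 or uninjured replicates 1 or 2 was left out (log2 0.52 to 0.79, adjusted p 0.0597 to 0.156), and that of miR-136 with a normexp background (0.25, adjusted p = 0.294). With that background the differences of the other 5p members were smaller too: from day 1 to day 7 they were 0.99 for miR-431, 0.92 for miR-337-5p and 0.48 for miR-434-5p, at day 7 against uninjured 0.58, 0.52 and 0.50, and all of these passed.

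**Figure D3:**
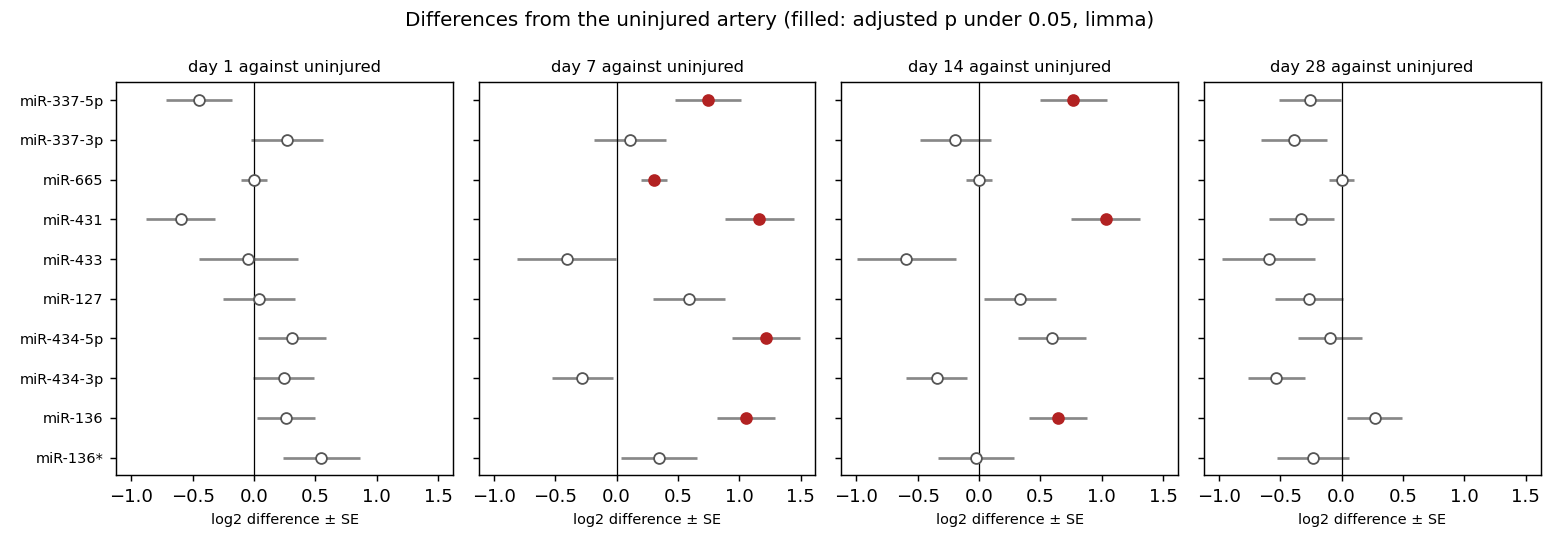
Log2 difference ± SE (limma) of each cluster miRNA from the uninjured artery at day 1, 7, 14 and 28; filled points have an adjusted p under 0.05 and open points do not. Filled are 5 members at day 7, among them miR-665 near the floor, 3 at day 14 and 0 at day 1 and day 28, before slide is taken into account.

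At day 1, 0 of the 10 members were called against uninjured by limma, where 32.4% of all tested miRNAs were, and 0 had an unadjusted p under 0.05. The members' differences ran from -0.60 ± 0.28 SE for miR-431 to 0.55 ± 0.31 SE for miR-136*, with a median of 0.14 against 0.24 over all tested miRNAs. This comparison depends on the scaling: with the 75th percentile taken over all probes the median over all tested miRNAs moved to -0.31, and miR-431 (log2 -1.23, limma adjusted p = 0.00187) and miR-337-5p (-1.08, adjusted p = 0.00519) passed as lower. At day 28, 0 of 10 members were called by limma, against 26.2% of all tested miRNAs, and 1 had an unadjusted p under 0.05. The differences ran from -0.59 for miR-433 to 0.27 for miR-136. Between day 14 and day 7, 0 of 10 members were called, against 10.3%, and 2 had an unadjusted p under 0.05, with differences of -0.63 for miR-434-5p to 0.02 for miR-337-5p. Between day 28 and day 14, miR-431 and miR-337-5p were the 2 of 10 called, both lower, against 15.3% of all tested miRNAs called and 5.61% called lower.

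The strands of a hairpin were then compared directly, as the log2 signal of the 5p strand minus that of the 3p strand on the same array. A scaling of the whole array by 1 factor cancels in this difference, while quantile normalization does not, and only its change between groups has a meaning, because the probes of the strands differ. It was chosen after the members' values had been seen, and limma was fitted over all 58 hairpins on the array with both strands tested, 4 of which belong to the cluster. Pairs named 5p and 3p were taken as 5p minus 3p, and pairs with a star as the plain name minus the star. Only miR-433 was turned to 5p minus 3p. A plain name can be either strand, so over all pairs a call as higher is not always a shift towards 5p.

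For miR-434 the strand difference was -2.90, -2.61 and -2.68 in the uninjured arteries and -2.61, -2.59 and -2.79 at day 1. It was -1.29, -1.22 and -1.18 at day 7, -1.59, -2.06 and -1.73 at day 14 and -2.25, -2.24, -2.33 and -2.36 at day 28. Day 7, day 14 and day 28 stood in that order, each apart from the next and all 3 above the uninjured and day 1 arrays. The shift from day 1 to day 7 was 2.69-fold towards the 5p strand (log2 1.43 ± 0.13 SE, limma adjusted p = 3.35e-06). From uninjured to day 14 it was 0.94 ± 0.13 SE (adjusted p = 0.000169), which fell to 0.355 with a normexp background (adjusted p = 0.195), and from uninjured to day 7 it was 1.50 ± 0.13 SE (adjusted p = 1.94e-06), or 1.40 ± 0.20 SE with slide as a block (adjusted p = 0.000321).

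For miR-337 the values were 0.65, 0.52 and 0.72 in the uninjured group, -0.15, -0.06 and -0.06 at day 1, and 1.28, 1.23 and 1.29 at day 7. They were 1.77, 1.50 and 1.49 at day 14, and 0.27 and 0.56 on slide 1 but 1.04 and 1.17 on slide 2 at day 28. All day 7 and day 14 arrays were above all other arrays. The shift towards the 5p strand from day 1 to day 7 was 2.56-fold (log2 1.35 ± 0.19 SE, limma adjusted p = 0.000155), and from uninjured to day 14 it was 1.95-fold (0.96 ± 0.19 SE, adjusted p = 0.0022). Day 28 split by slide, and the difference of -0.72 between day 1 and uninjured (adjusted p = 0.0134) became -0.03 with slide as a block. It was the only call among the 4 hairpins in that comparison, where 37.9% of all pairs passed. For miR-136 the strand difference was 0.70, 0.43 and 0.06 uninjured, -0.12, 0.17 and 0.27 at day 1, 1.01, 1.17 and 1.14 at day 7, 1.12, 0.84 and 1.22 at day 14, and 0.72, 0.99, 0.74 and 1.14 at day 28. Its shift from day 1 to day 7 was 2.00-fold (log2 1.00 ± 0.18 SE, limma adjusted p = 0.000762) and that from uninjured to day 14 was 1.59-fold (0.67 ± 0.18 SE, adjusted p = 0.0121). The latter did not pass without day 14 replicate 3 (0.59, adjusted p = 0.0557), on slide 2 alone (adjusted p = 0.0623) or with a normexp background (0.24, adjusted p = 0.195). Nor did it pass with the mean over probes (0.35, limma adjusted p = 0.125), outlier spots kept (0.57, adjusted p = 0.0608), the value table (0.53, adjusted p = 0.0568) or only the 2 groups compared (adjusted p = 0.07235). The 3p strand, miR-136*, was well above background on 2 of the 3 uninjured arrays. With normexp the shift from day 1 to day 7 was 0.93 for miR-434, 1.07 for miR-337 and 0.46 for miR-136, and all 3 passed.

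**Figure D4:**
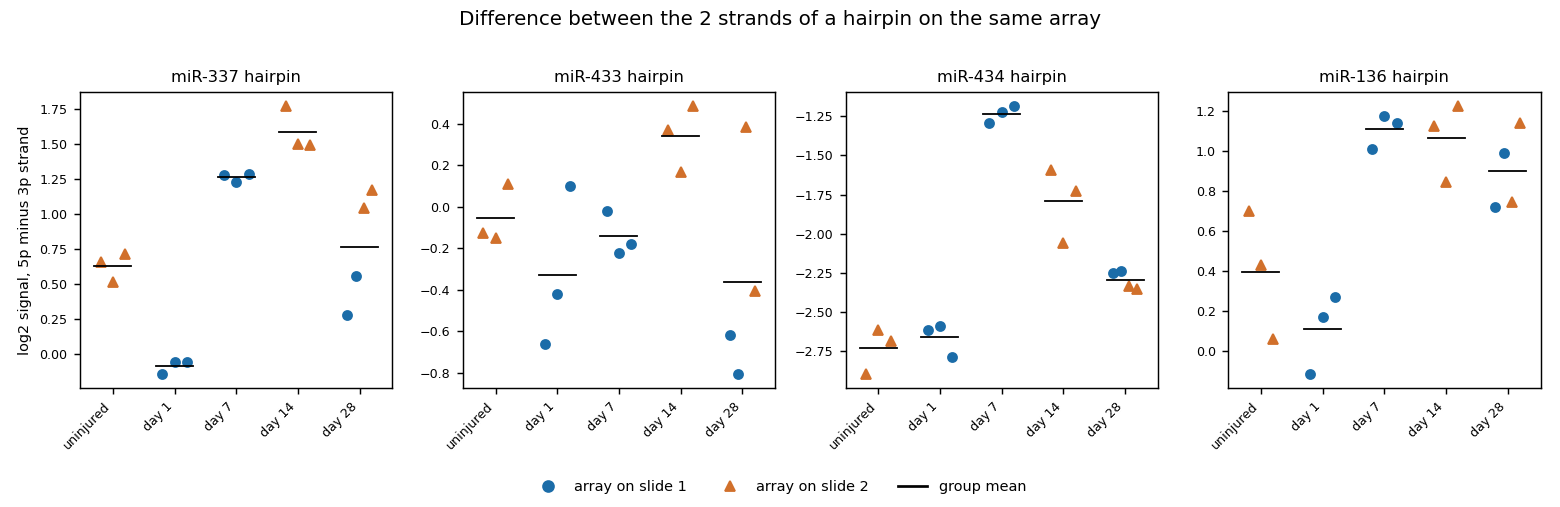
Log2 signal of the 5p strand minus that of the 3p strand of the same hairpin (vertical axes) on each of the 16 arrays, by group, for the 4 cluster hairpins with both strands tested; circles are arrays of slide 1, triangles arrays of slide 2 and bars group means. For miR-434 the day 7 arrays lie at -1.29 to -1.18 and the day 1 arrays at -2.79 to -2.59, while the groups of miR-433 overlap.

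The remaining hairpin, miR-433 with its other strand miR-433*, passed the test in 0 of the 7 comparisons, and at an unadjusted p under 0.05 only from day 14 to day 28. Its strand difference changed by 0.19 ± 0.27 SE from day 1 to day 7 (limma adjusted p = 0.535) and by 0.40 ± 0.27 SE from uninjured to day 14 (adjusted p = 0.281). In all, 3 of the 4 cluster hairpins shifted towards 5p from day 1 to day 7. Of all 58 strand pairs 51.7% were called in this comparison and 39.7% called higher, so that strand shifts were common among hairpins. The share of all pairs that shifted towards 5p was not counted, since their directions are mixed. From uninjured to day 14 the same 3 of 4 hairpins were called, against 24.1% of all pairs called and 17.2% called higher. From uninjured to day 7 they were again 3 of 4, against 41.4% of all pairs called and 20.7% called higher. With slide as a block they were 2 of 4 against 19% of all pairs, and miR-136 gave 0.80 (limma adjusted p = 0.0667). Before the block, the difference of 0.64 for miR-337 gave an adjusted p of 0.0524 without day 7 replicate 1. Its adjusted p was 0.0617 without uninjured replicate 2 and 0.0657 with quantile normalization, while the difference was 1.33 with slide as a block. From day 14 to day 28 miR-337 (-0.83 ± 0.18 SE, adjusted p = 0.0156) and miR-434 (-0.50 ± 0.12 SE, adjusted p = 0.022) shifted back, 2 of 4 against 8.62% of all pairs, and 0 of 4 passed with slide as a block, as did 0% of all pairs, with 2 at an unadjusted p under 0.05. The call of miR-337 ended without day 14 replicate 1 (-0.74), and that of miR-434 without day 14 replicates 1 (-0.40) or 3 (-0.47) or day 28 replicate 4 (-0.48). From day 7 to day 14 miR-434 alone shifted back (-0.56 ± 0.13 SE, adjusted p = 0.0156), against 12.1% of all pairs called, a call that ended with slide as a block (-0.46) and without day 7 replicates 2 (-0.55) or 3 (-0.53) or day 14 replicate 2 (-0.43). At day 28 miR-434 kept a difference from uninjured of 0.44 ± 0.12 SE (adjusted p = 0.0295), against 12.1% of all pairs, and with slide as a block it was 0.39 (adjusted p = 0.0891). The block instead brought miR-337 past the threshold at day 28, at 0.48 (adjusted p = 0.0202) against 0.13 without it (adjusted p = 0.611). The call of miR-434 ended without day 28 replicates 1, 2 or 3 or uninjured replicate 1 (0.35 to 0.45) and with normexp (0.15) or quantile normalization (0.57, adjusted p = 0.0792). The other strands of miR-431 and miR-127 were well above background on 0 of the 16 arrays, so that their strand differences cannot be given.

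The members' likeness to each other is given as Pearson's r over the 16 arrays, as a description and with no test, since the arrays share scaling, slide and group. For the 6 pairs of 5p members r ran from 0.64 to 0.98 (median 0.77), and for the 10 pairs of 3p members above the floor from 0.47 to 0.93 (median 0.79). For the 20 pairs of a 5p with a 3p member it ran from -0.04 to 0.94 (median 0.29). The highest value was that of miR-337-5p with miR-431 (0.98), the pair that shares 9 bases, and miR-434-5p with miR-434-3p gave 0.34. Within groups the picture differed. When each group's mean was taken away first, all 36 pairs were positive, and pairs across strands had r of 0.56 to 0.97 (median 0.77). Over all arrays miR-127, a 3p strand, was as like the 5p members (0.76 to 0.94) as they were to each other, and less like the other 3p members (0.47 to 0.75).

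**Figure D5:**
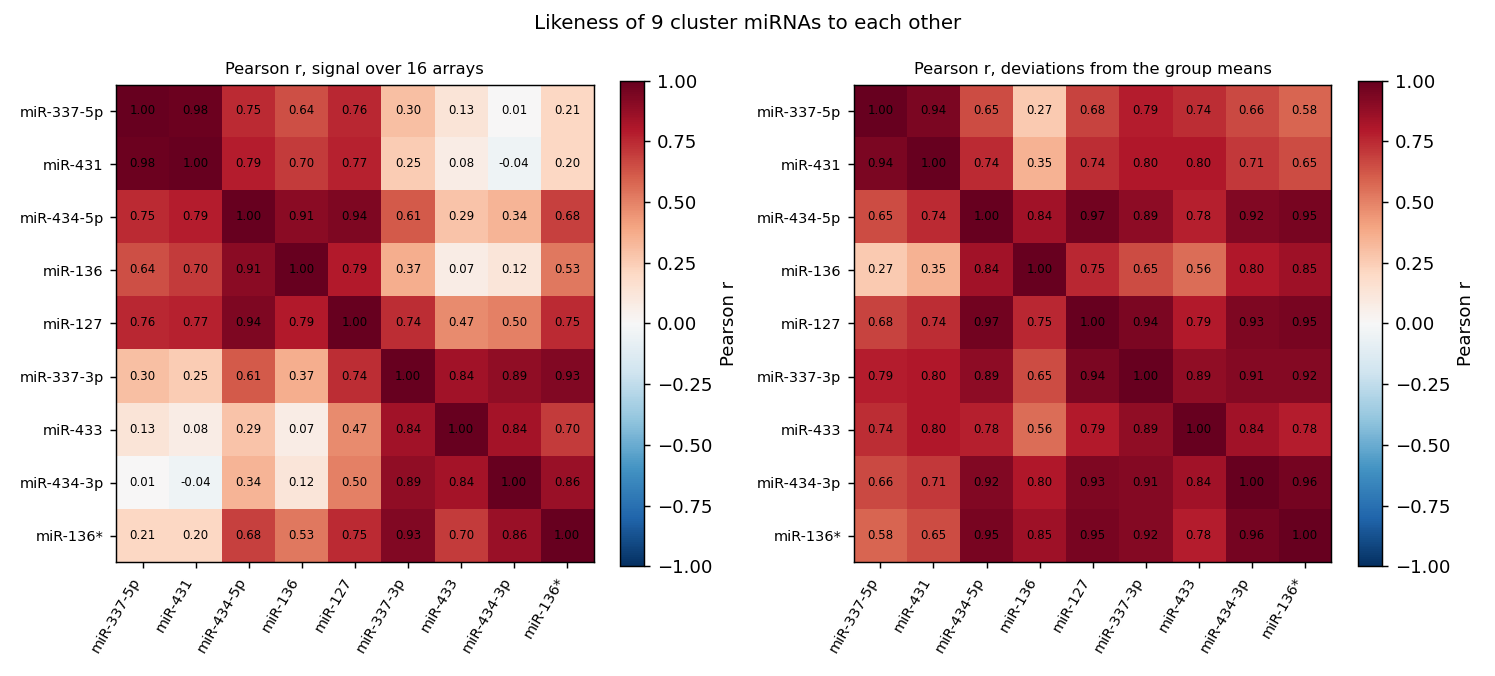
Pearson's r between 9 cluster miRNAs over the 16 arrays, for the scaled log2 signal (left) and for its deviations from the group means (right); colour and number give r. On the left the first 4 miRNAs, all 5p, and the last 4, all 3p, have r of 0.64 to 0.98 and 0.70 to 0.93 among themselves and -0.04 to 0.68 between them, while the fifth, miR-127 (3p), has 0.76 to 0.94 with the 5p and 0.47 to 0.75 with the other 3p members; on the right every pair is positive.

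Uninjured replicate 3 had the highest value of its group for 9 of the 9 members above the floor. At day 1, replicate 1 was the highest and replicate 3 the lowest for 9 of 9. The summed signal of 8 miRNAs of neurons (miR-124, miR-9 and others) was also highest in its group on uninjured replicate 3, at a log2 of 1.80 against 0.80 and 0.98, and on day 1 replicate 1, and lowest on day 1 replicate 3, at 1.13 against 1.93 and 2.09. From day 1 to day 7 the sum of these markers fell while the 5p members rose. The sum was 0.80 to 1.80 (uninjured), 1.13 to 2.09 (day 1), -1.31 to -0.92 (day 7), -1.46 to 0.17 (day 14) and -0.23 to 1.17 (day 28). Of the 8, 6 or 7 were well above background at day 7 and 2 to 7 at day 14. The summed signal of 4 miRNAs of fibroblasts and other mesenchymal cells (miR-199a-3p, miR-199a-5p, miR-199b* and miR-214), all 4 well above background on every array, was 4.24 to 4.37 (uninjured), 3.02 to 3.37 (day 1), 4.94 to 5.14 (day 7), 4.89 to 5.08 (day 14) and 4.67 to 4.96 (day 28). It was above the uninjured range at day 7, day 14 and day 28 and below it at day 1. Its members were not alike: at day 7 limma called miR-199a-3p, miR-199a-5p and miR-214 higher than uninjured, but not miR-199b* (log2 0.06). The sum for smooth muscle was 1.82 to 2.67 (uninjured), 1.56 to 2.36 (day 1), 0.62 to 0.85 (day 7), 0.08 to 0.14 (day 14) and 0.92 to 1.06 (day 28). That of 4 leukocyte miRNAs (miR-223, miR-150 and both strands of miR-142), of which 3 or 4 were well above background on each array, was 0.62 to 0.93 (uninjured), 4.67 to 4.81 (day 1), 3.65 to 4.08 (day 7), 3.28 to 3.96 (day 14) and 3.01 to 3.47 (day 28). It was thus above the uninjured range in every injured group and highest at day 1. Of the leukocyte miRNAs, miR-150 was called by limma against uninjured in no injured group (log2 0.28, 0.04, 0.03 and 0.86, in order of day). The endothelial sum was 3.28 to 3.37 (uninjured), 2.82 to 3.30 (day 1), 3.62 to 3.94 (day 7), 3.61 to 3.79 (day 14) and 3.49 to 3.97 (day 28). Fat miRNAs, all 3 detected throughout, gave 3.07 to 3.52 (uninjured), 1.84 to 2.75 (day 1), 1.05 to 1.47 (day 7), 1.30 to 1.43 (day 14) and 1.53 to 2.34 (day 28). The endothelial sum was above the uninjured range at day 7, day 14 and day 28, and the fat sum was below it in every injured group. The fat miRNAs were not alike: at day 1 miR-193b was called lower than uninjured (log2 -1.26), while miR-365 differed by 0.58 (limma adjusted p = 0.0576). Striated muscle miRNAs, 3 or 4 of 4 detected, gave 3.00 to 3.61 (uninjured), 2.51 to 4.29 (day 1), 1.95 to 2.86 (day 7), 1.86 to 2.71 (day 14) and 1.30 to 2.39 (day 28). At day 14 miR-1 (log2 -1.48) and miR-133a (-1.45) were called lower than uninjured, while miR-206 differed by 2.06 (limma adjusted p = 0.0731). The 3 erythrocyte miRNAs, all detected, gave 4.02 to 5.42 (uninjured), 4.79 to 5.98 (day 1), 3.92 to 4.79 (day 7), 3.93 to 4.64 (day 14) and 4.64 to 5.38 (day 28), so that every injured group overlapped with the uninjured. The part of these cell types in the members' values was not tested.

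The rest of the Dlk1-Dio3 locus was read from a list of 60 further miRNAs, 36 of them tested. From day 1 to day 7, 9 of the 36 were higher and 2 lower, with a median log2 difference of 0.34, where 18.7% of all tested miRNAs were higher. At day 14, 6 were higher than uninjured and 0 lower, with a median of 0.08, against 20.2% of all tested miRNAs higher. At day 7, 18 were higher than uninjured and 2 lower, with a median of 0.73, against 27.4% of all higher, and with slide as a block 7 were higher and 0 lower, against 28.3% of all called. Without day 7 replicate 2 or 3 the 20 called at day 7 were 12 and 13. Of those with the smallest p, miR-299 rose 7.34-fold from day 1 to day 7 (log2 2.88 ± 0.19 SE, limma adjusted p = 4.54e-07), miR-299*, the other strand of its hairpin, 4.64-fold (2.21 ± 0.16 SE, adjusted p = 4.54e-07), miR-379 4.52-fold (2.18 ± 0.24 SE, adjusted p = 1.56e-05) and miR-411 3.41-fold (1.77 ± 0.22 SE, adjusted p = 4.25e-05). At day 14 miR-299 (log2 1.42 ± 0.19 SE), miR-299* (0.89 ± 0.16 SE), miR-379 (1.21 ± 0.24 SE) and miR-494 (1.48 ± 0.34 SE) were above uninjured. Both strands of the miR-299 hairpin were thus higher in each of these comparisons. From day 14 to day 28, 0 of the 36 were higher and 6 lower, against 5.61% of all lower.

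Over the 16 arrays the miRNAs most like the mean of the 8 members detected on every array were miR-329 (r = 0.91), miR-382 (0.90), miR-381 (0.89), miR-341 (0.89) and miR-409-3p (0.88), out of 211 candidates. All of these belong to the locus list, as did 18 of the 20 most like, while 23 of the 211 candidates were on it. The mean of the 8 members itself was highest at day 7 (-2.11, -1.93 and -1.88) and lowest at day 28 (-2.57, -2.64, -2.80 and -3.08), with the uninjured (-2.87, -2.69 and -1.94) and day 1 arrays (-2.11, -2.36 and -3.01) spread across that range.

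All members had more than a single probe, and the second probes bear on the values above. The second probe of miR-337-5p, well above background on 14 arrays, differed between day 7 and day 1 by 1.22, against 1.20 for the brightest, but between day 7 and uninjured by 1.37 against 0.75. That of miR-127 gave 0.37 against 0.55 for day 7 and day 1, and 0.55 against 0.59 for day 7 and uninjured. For miR-434-3p the second probe gave -0.70 against -0.52 for day 7 and day 1, and -0.31 against -0.28 for day 7 and uninjured. The other 2 probes of miR-337-3p gave -0.36 and -0.70 for day 7 and day 1, against -0.16 for the brightest. The second probes of miR-431, miR-434-5p, miR-136 and miR-433 were well above background on 5, 4, 1 and 0 of the 16 arrays. The values of these members thus rest on a single probe each.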

How the data were processed

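The authors deposited 1 scanner file per array, with the intensity of each spot after Agilent Feature Extraction 9.5.1.1, per the file headers, and a table of linear intensity values for 610 miRNAs. Its values all match the files' total gene signal to 0.1%. Its column medians were 3.81, 5.36 and 7.93 in the uninjured group, 13.0, 13.5 and 8.44 at day 1, 16.6, 11.5 and 11.0 at day 7, 7.67, 11.2 and 14.2 at day 14 and 9.00, 16.1, 11.6 and 7.62 at day 28, so it is not centred. Its unit beyond a linear signal is not given in the sources used here. Per the labels, RNA came from a miRNeasy kit, and the Cy3 dye was ligated to 700 ng of total RNA.

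The processed intensity was averaged over a probe's spots without outlier mark, divided by the array's 75th percentile over the 395 mouse probes well above background on all 16 arrays, raised to a floor of 0.0181 where lower, and put on the log2 scale. Detection of a probe needed 50% or more of its spots well above background. The brightest probe stood for a miRNA. The test took the 321 miRNAs detected throughout 1 group or more, of which 219 were detected on all arrays, and 0 mouse spots were saturated. The number of arrays limits the precision.

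Comparisons used limma 3.58.1 (R 4.3.3), with 1 model over the 5 groups, with Benjamini-Hochberg adjustment over all tested miRNAs of a comparison (or all 58 strand pairs) and calls at an adjusted p under 0.05. An exact permutation test of 3 arrays against 3 cannot give a two-sided p below 0.1. The series design gives 3 to 4 animals per group, though the labels do not say whether the uninjured arteries came from separate animals. The p-values measure only the spread between these samples. Fits were repeated with slide as a block and within a slide. The limma fit without a block was tested on simulated data for day 7 against uninjured. Scaling, floor, filter, probe choice and strand differences were not part of that test.

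The members and lists were chosen with earlier results of these data known. All 10 members were described, with counts over the locus list, up to 4 of its members with the smallest p at a day with members called, and the 5 miRNAs most like the members. The strands of plain array names were taken from general knowledge of the miRBase records that the files name. The alternatives tried, listed in the closing section, were other scalings, backgrounds, filters, floors, probe summaries, the authors' value table, blocks, array weights and each array left out.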

Additional observations from a re-analysis of the deposited data

Results flagged for a closer look

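Differences between days were flagged because they compare injured groups with each other, and all p-values behind them are limma's adjusted ones. No uninjured group was matched to each day, so they cannot isolate the effect of injury itself. From day 1 to day 7 miR-431 rose by 1.76 on the log2 scale, miR-337-5p by 1.20, miR-434-5p by 0.91, miR-136 by 0.79 and miR-665 by 0.31, the last near the floor of the signal. From day 14 to day 28 miR-431 differed by -1.36 and miR-337-5p by -1.02. In these comparisons all arrays of the higher day lay above all arrays of the lower day, which for miR-665 were all at the floor.

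The strand differences, 5p minus 3p, were flagged for the same reason. From day 1 to day 7 they changed by 1.43 for miR-434, 1.35 for miR-337 and 1.00 for miR-136. From day 7 to day 14 that of miR-434 changed by -0.56. From day 14 to day 28 it changed by -0.50 for miR-434 and by -0.83 for miR-337. No array of day 28, the only group of 4, stood apart from its group for any member or strand difference.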

How the results depend on the processing

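The counts of called members moved with several settings. At day 7 against uninjured, 5 were called, or 4 without miR-665, which could enter the test only through day 7. The count was 3 with a normexp background, 3 with only the 2 groups compared, and 0 with slide as a block. At day 14 against uninjured the 3 calls became 1 with the 75th percentile over all probes, median scaling, quantile normalization, no scaling or no filter, 0 with only the 2 groups compared and 5 with array weights. At day 1 the count of 0 became 2 (both lower) under the first 3 of those scalings and 4 (all higher) with array weights. At day 28 against uninjured it was 1 with quantile normalization and 2 with normexp. From day 1 to day 7 it was 5, or 4 without miR-665, and 3 with normexp. From day 7 to day 14 the count of 0 became 1 with median scaling, quantile normalization, no filter, a floor of 0.5 times or the value table, and 3 with array weights. From day 14 to day 28 the 2 calls became 1 with slide as a block, 0 within slide 2 or without scaling, and 4 with array weights. Leaving out 1 array at a time gave 3 to 6 calls at day 7 against uninjured, 0 to 3 at day 14 and 0 at day 1 and at day 28. Between days it gave 2 to 5 calls (day 1 and 7), 0 to 1 (day 7 and 14) and 1 to 2 (day 14 and 28). Apart from slide as a block, the share of all tested miRNAs called under these settings was not counted. With array weights calls also rose in the rest of the locus. There 26 of the 36 tested were called at day 1 against uninjured, where the main settings called 3 higher and 3 lower. The cause of these changes was not tested.

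With a normexp background miR-136 at day 14 against uninjured reversed, from 0.64 to -0.0507. Scaling moved the median of all tested miRNAs: between day 7 and day 1 it was -0.19, but 0.27 with the 75th percentile over all probes or median scaling, where miR-431 differed by 2.25. The strand differences from day 1 to day 7 of miR-434, miR-337 and miR-136 stayed past the threshold in all 35, 35 and 34 alternatives, but other strand calls did not. Those of miR-434 (0.355) and miR-136 (0.24) at day 14 against uninjured ended with normexp, and so did those of miR-434 at day 28 against uninjured (0.15), from day 7 to day 14 (-0.40) and from day 14 to day 28 (-0.20). Quantile normalization ended the last 3 (0.57, -0.55 and -0.48) and those of miR-337 at day 1 (-0.68) and day 7 (0.61) against uninjured. Normexp also ended the calls of miR-136 from day 1 to day 7 (0.31) and at day 7 against uninjured (0.25). The replicate number as a block left 3 calls at day 7 and 1 at day 14 against uninjured and 1 from day 14 to day 28, and with slide as a second block 0 at day 7 and 0 from day 14 to day 28. The deviations of arrays with the same replicate number correlated with r of -0.45 to 0.56 (median -0.06). Arrays of different groups and different numbers gave r of -0.77 to 0.77 (median 0.02). With so few arrays these values cannot decide whether the numbers pair the arteries. Signal over background limits miR-665 and miR-136*.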
